A study of Mus musculus with 8 samples.

Results

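The basal transcriptome of DENR-deficient tumor cells was examined in MC38, a mouse colon adenocarcinoma line, by comparing cells labelled DENR KO with cells labelled control; wild type, both without IFNγ. The comparison held 4 of the 8 RNA-seq samples of the series, 2 DENR KO and 2 control, chosen by their genotype and by the label untreated. The remaining 4 samples carried the same genotypes and received IFNγ at 20 ng/ml for 4 h, and they served as separate samples in which the same genes were read again. The study's methods describe stable control and DENR KO MC38 lines made with lentiviral Cas9 and guide RNAs, and the labels do not say which guide was used or whether the 2 samples of a genotype came from separate cultures or guides. With 2 samples per group, the p-values measure only the spread between these samples, which may be technical.

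DENR binds MCTS1, and the pair removes the last tRNA from small ribosomal subunits after a stop codon and lets them start again downstream. Messenger RNAs with short upstream open reading frames depend on this reinitiation, so DENR is known for acting on translation, whereas RNA-seq reads transcript levels. The programs described here are those a carcinoma cell runs without cytokine. Transforming growth factor β (TGF-β) signals through SMAD proteins to matrix and feedback genes. Sterol regulatory element-binding proteins drive the genes of cholesterol and fatty acid synthesis.

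Between 17538673 and 18403790 reads per untreated sample fell on genes, and the values below are these reads divided by 1 size factor per sample, called normalized counts. Of 22288 genes in the untreated table, 13998 had a mean of at least 10 over the 4 samples and were tested. Of the colon epithelial markers Cdh1, Krt8, Krt18, Krt19, Vil1 and Cdh17, none exceeded 20.6 normalized counts in any sample. Vim, the intermediate filament of mesenchymal cells, was at 72377 to 74880. Of the leukocyte markers, Ptprc reached at most 3.06 normalized counts, Cd68 lay between 66.3 and 78.6 and Cd14 between 441 and 481. The difference between genotypes also moved with gene length: 60.2% of genes of 1 to 2 kb had a log2 fold change above 0, against 37.0% of genes of 8 kb and more and 50.5% of all genes tested. Without control 2 these shares were 49.8% and 48.6%, and the same 2 length classes stood at 51.9% and 53.7% in the IFNγ-treated samples. The part of this length pattern in the results below was not tested, and medians without control 2 are given for several lists.

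**Figure D1:**
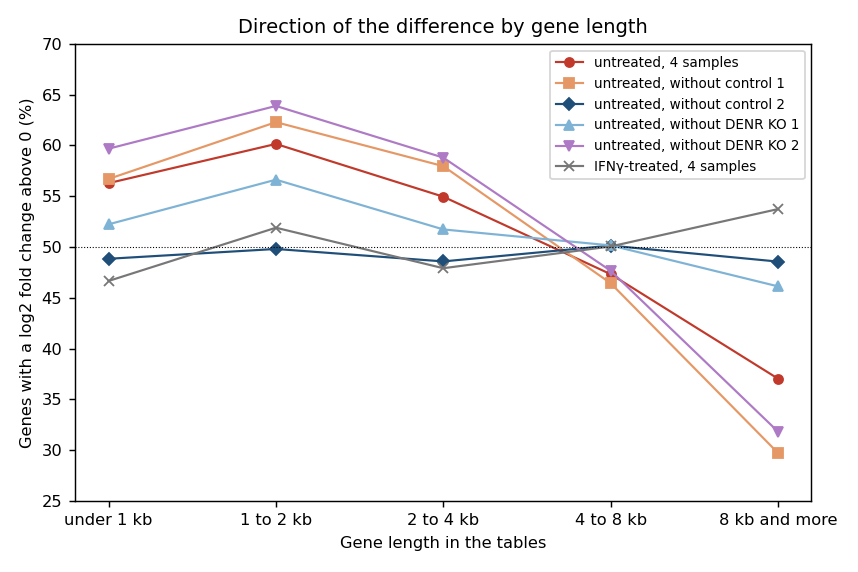
Share of tested genes whose log2 fold change (DENR KO over control) lay above 0, in percent, for 5 classes of gene length; each line is a set of samples. The untreated comparison fell from 60.2% at 1 to 2 kb to 37.0% at 8 kb and more, and the line without control 2 stayed between 48.6% and 50.1%.

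Denr transcripts were lower in both DENR KO samples. The gene (chromosome 5, 123907175 to 123928835, plus strand, GRCm38) was at 1448 and 1297 normalized counts in control cells and at 943 and 916 in DENR KO cells. The groups did not overlap, and the KO mean was 67.7% of the control mean (log2 fold change −0.56 ± 0.08 SE, adjusted p = 1.1e-04, limma). Reads over the whole gene were counted, so the edit itself is not visible in these values, and in bulk RNA fewer cells with a transcript and less of it per cell cannot be told apart. No difference beyond the spread between samples was detected for the related factors. Mcts1, which encodes the binding partner, had 365 and 376 normalized counts in control cells and 356 and 321 in DENR KO cells (log2 fold change −0.13 ± 0.11, adjusted p = 0.77). The retrogene Mcts2 had 272 and 288 against 335 and 243 (log2 fold change 0.03 ± 0.14, adjusted p = 0.97). Eif2d, a single protein that combines the domains of both, had 752 and 703 against 738 and 744 (log2 fold change 0.03 ± 0.09, adjusted p = 0.95). Among 46 other genes tested within 1 Mb of Denr none passed by limma, edgeR or DESeq2, 4 had an unadjusted p under 0.05 (9.25% of all genes tested did), and their median log2 fold change was −0.0075.

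Few transcripts passed the threshold for a difference between DENR KO and control cells without IFNγ, and more of these rose than fell. At an adjusted p under 0.05, 60 genes rose, which is 0.429% of the genes tested, and 21 fell, which is 0.15%. Together these 81 genes were 0.579% of those tested, and 30 of them (0.214%) differed by more than 0.5 on the log2 scale, 18 higher and 12 lower. All 81 had groups that did not overlap, a property shared by 39.9% of all genes tested. The genes that rose had a median log2 fold change of 0.37 and the genes that fell one of −0.54, beside 0.0019 over all genes tested. The count depended on 1 library: without control 2, 32 genes passed (18 higher, 14 lower), of which 15 were among the 81. It also depended on the tool, with 41 genes by edgeR and 52 by DESeq2 on the recovered reads. With each sample centred on its own median, 44 rose and 29 fell. In these and the other alternatives each of the 81 genes kept its direction wherever it had a value, and 11 passed the threshold in all of them, among them Denr, Pmepa1, L1cam, Igfbp7, Sgo1, Prl2c2, Ifitm1, Il1rl1, 2810021J22Rik and 1 unnamed locus described at the end. With each sample left out in turn, 14 of the 81 passed every time.

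**Figure D2:**
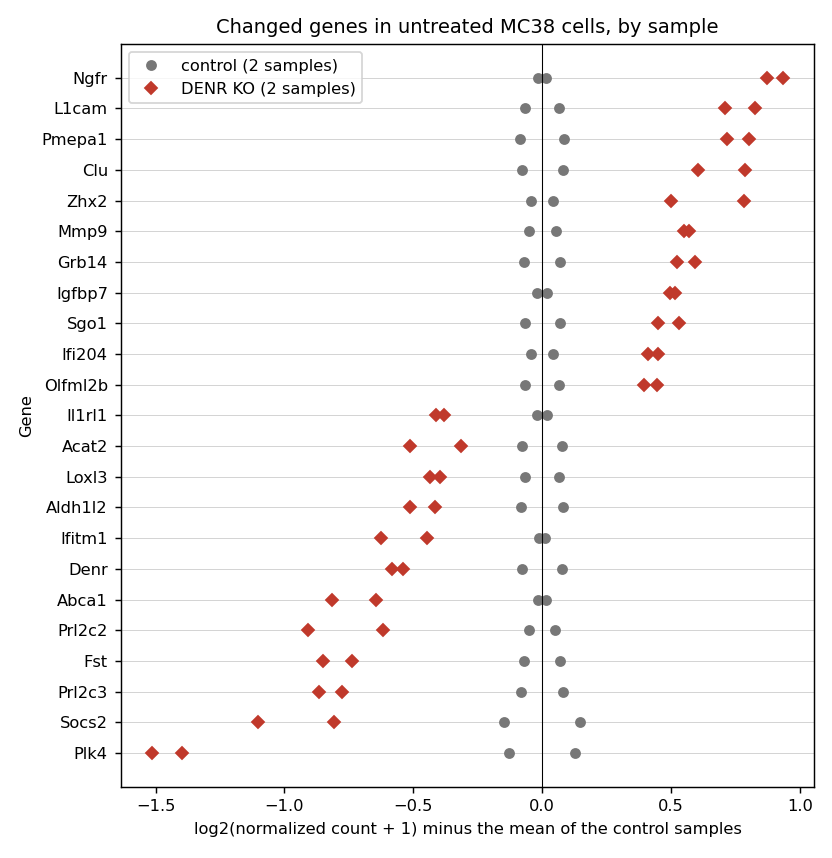
Samples of 11 of the 12 highest and of the 12 lowest changed genes that were protein coding with a symbol that is no clone name, lay on a main chromosome, had a mean of at least 100 and did not overlap between groups; the x axis is log2(normalized count + 1) minus the mean of the control samples, circles are control and diamonds DENR KO samples. DENR KO samples lay to the right of both control samples for the upper 11 genes, up to Ngfr, and to the left for the lower 12, down to Plk4. This separation follows from the rule by which the genes were picked.

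Igfbp7, a secreted binding protein for insulin-like growth factors, went from 1318 and 1286 to 1861 and 1837 (log2 fold change 0.51 ± 0.07, adjusted p = 9.0e-05). The replicates of each group lay close together compared with the gap between the groups.

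Sgo1, which protects centromeric cohesion in cell division, rose from 1045 and 1149 to 1498 and 1585 (log2 fold change 0.49 ± 0.07, adjusted p = 4.6e-04). Clu, the extracellular chaperone clusterin, had 154 and 138 in control cells and 252 and 222 in DENR KO cells (log2 fold change 0.70 ± 0.15, adjusted p = 0.016). Zhx2, a homeobox repressor of transcription, had 272 and 256 against 454 and 373 (log2 fold change 0.64 ± 0.12, adjusted p = 0.0053). The 2 DENR KO samples of Zhx2 stood further apart than the 2 controls, although both lay above them. Grb14, an adaptor that inhibits insulin receptor signaling, rose by 0.56 ± 0.11 on the log2 scale (adjusted p = 0.012). Olfml2b, a secreted olfactomedin-domain protein, rose by 0.42 ± 0.09 (adjusted p = 0.014).

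By limma, TGF-β signaling was the list with the most genes that rose, while by DESeq2 more genes passed among collagens and matrix proteins (6) than in the TGF-β list (4), and by edgeR both had 2. Of 39 tested members of the list of TGF-β and activin targets and regulators, 5 rose and 1 fell. Over all genes tested 0.429% rose and 0.15% fell. Of the 39, 30 lay above 0, and the list's median log2 fold change was 0.09 beside 0.0019 over all genes. Without control 2 the median was 0.07. Pmepa1, a direct SMAD target that dampens the pathway, had the smallest p of any gene with a symbol. It had 731 and 823 normalized counts in control cells and 1276 and 1353 in DENR KO cells, so that every DENR KO value lay far above both controls (log2 fold change 0.76 ± 0.08, adjusted p = 2.2e-06). Smad7, the inhibitory SMAD induced by the pathway, went from 1787 and 1755 to 2280 and 2383 (log2 fold change 0.40 ± 0.07, adjusted p = 0.0016). The ligand itself, Tgfb1, went from 1798 and 1742 to 2169 and 2188 (log2 fold change 0.30 ± 0.07, adjusted p = 0.023). All 3 were higher in both DENR KO samples, with the feedback gene Pmepa1 showing the widest gap.

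The latent TGF-β binding proteins, which tether the ligand in the matrix, moved in the same direction. Ltbp2 had 8392 and 8108 normalized counts in control cells and 9627 and 10564 in DENR KO cells (log2 fold change 0.29 ± 0.06, adjusted p = 0.012). Ltbp4 had 13168 and 13283 against 15154 and 16546 (log2 fold change 0.26 ± 0.06, adjusted p = 0.021). The member that fell was Fst, which encodes follistatin, a secreted antagonist of activin. Fst had 190 and 172 in control cells and 100 and 108 in DENR KO cells (log2 fold change −0.79 ± 0.17, adjusted p = 0.014). Of these 6 genes only Pmepa1 and Smad7 passed in the count tests by both edgeR and DESeq2.

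Of the 5 TGF-β genes that rose, 3 had a promoter in the table, and those of Ltbp2 and Tgfb1 are shown as examples with and without the element described next (RefSeq, GRCm38.p6, 250 bases before to 50 after the start, 5′ to 3′ on the gene's strand). Capitals mark CAGAC or its reverse complement GTCTG, the short element bound by SMAD proteins, searched on both strands. Ltbp2 lies at chr12:84876442-84876741 on the minus strand and Tgfb1 at chr7:25686752-25687051 on the plus strand.
Ltbp2: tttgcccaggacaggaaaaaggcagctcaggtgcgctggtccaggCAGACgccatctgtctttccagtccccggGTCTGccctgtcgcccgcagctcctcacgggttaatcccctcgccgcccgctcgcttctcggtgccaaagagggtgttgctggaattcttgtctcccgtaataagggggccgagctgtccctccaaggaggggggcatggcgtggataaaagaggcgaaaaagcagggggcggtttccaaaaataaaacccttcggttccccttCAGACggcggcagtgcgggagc
Tgfb1: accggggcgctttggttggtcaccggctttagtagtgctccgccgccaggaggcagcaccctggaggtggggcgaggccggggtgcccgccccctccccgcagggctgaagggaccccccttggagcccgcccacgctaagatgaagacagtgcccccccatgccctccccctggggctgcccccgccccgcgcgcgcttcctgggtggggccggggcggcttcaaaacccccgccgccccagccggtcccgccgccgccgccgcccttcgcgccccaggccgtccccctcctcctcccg
These letters occurred 3 times in the Ltbp2 window and were in neither the Tgfb1 nor the Ltbp4 window, so 1 of the 3 promoters held them (33.3%). Over all genes that rose, 18 of the 41 with a promoter in the table held these letters (43.9%), beside 47.3% of 9608 tested genes with one. Among the genes that fell it was 2 of 9 (22.2%).

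Matrix genes and the enzymes that cut matrix accounted for further risers. Of 28 matrix proteases and inhibitors tested, 3 rose and none fell, with a median log2 fold change of 0.06 (0.03 without DENR KO 2). Over all genes tested 0.429% rose and 0.15% fell, and the lists were chosen with earlier results of these data known. Mmp9, a gelatinase that degrades collagen IV, had 398 and 370 normalized counts in control cells and 563 and 571 in DENR KO cells (log2 fold change 0.56 ± 0.10, adjusted p = 0.0031). Mmp2, the second gelatinase, went from 11646 and 10933 to 13437 and 13794 (log2 fold change 0.27 ± 0.06, adjusted p = 0.013). Timp2, which binds and both activates and inhibits Mmp2, went from 25575 and 26407 to 30444 and 30027 (log2 fold change 0.22 ± 0.05, adjusted p = 0.048). The folds were 1.21 for Mmp2 and 1.16 for Timp2, and in neither gene did the groups overlap. By edgeR, Mmp9 alone of these 3 passed.

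Of 52 collagens and other matrix proteins tested, 2 rose and 2 fell, beside 0.429% and 0.15% of all genes tested. The list's median was 0.08, and 0.0061 without DENR KO 2. Col4a1, the main chain of basement membrane collagen, rose from 2344 and 2318 to 2824 and 3241 (log2 fold change 0.38 ± 0.07, adjusted p = 0.0038). Col6a3 rose by 0.24 ± 0.06 on the log2 scale, just inside the threshold (adjusted p = 0.0499). Dcn, the proteoglycan decorin, fell from 4438 and 4709 to 3890 and 3487 (log2 fold change −0.31 ± 0.06, adjusted p = 0.013). Loxl3, a lysyl oxidase that crosslinks collagen, fell from 1097 and 1002 to 796 and 774 (log2 fold change −0.42 ± 0.08, adjusted p = 0.0090). Members of the matrix list thus passed in both directions. Of 15 integrins, Itgb5 alone passed, with a log2 fold change of 0.31 ± 0.06 (adjusted p = 0.012). Itgb5 passed by DESeq2 as well but not by edgeR. Of the 15 integrins 9 lay below 0, with a median of −0.03.

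Neural adhesion and guidance genes held some of the widest differences. Of 36 tested, 2 rose and 1 fell, beside 0.429% and 0.15% of all genes tested, with a median log2 fold change of 0.09. L1cam, an adhesion molecule of axons that many carcinomas express, had 339 and 309 normalized counts in control cells and 530 and 575 in DENR KO cells. The log2 fold change was 0.77 ± 0.10 (adjusted p = 9.0e-05). Ngfr, the low-affinity neurotrophin receptor, had 114 and 116 against 221 and 211 (1.87-fold, log2 fold change 0.90 ± 0.15, adjusted p = 0.0021). In both genes the gap between the groups was several times the spread within them. Sema3a, a repulsive guidance cue, fell from 2578 and 2717 to 2226 and 2119 (log2 fold change −0.29 ± 0.06, adjusted p = 0.029).

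**Figure D3:**
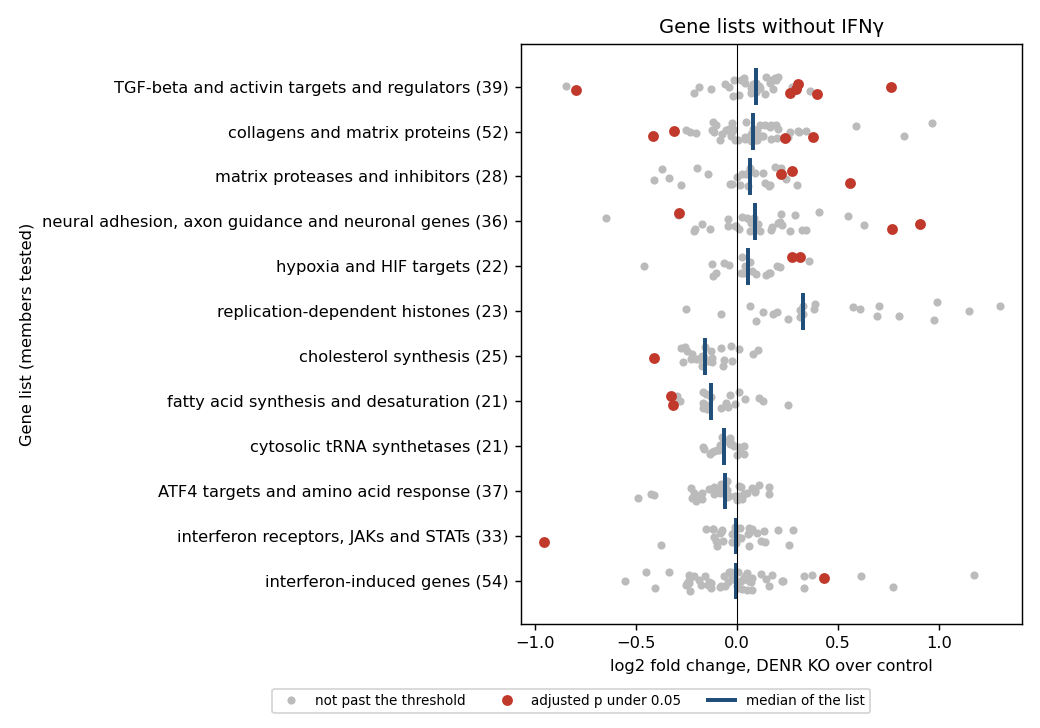
Log2 fold change (DENR KO over control, untreated) of every tested member of 12 gene lists, with the number tested in brackets; red points passed the adjusted p threshold and blue bars are list medians. The histone median (0.33) and the cholesterol synthesis median (−0.16) lay furthest from 0 among the lists drawn.

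Few genes of lipid synthesis passed the threshold, and the list members that passed were all lower. Over all genes tested 0.15% fell. Of 25 genes of cholesterol synthesis tested, 22 lay below 0 with a median log2 fold change of −0.16, while 50.5% of all genes tested lay above 0. The median ranged from −0.19 to −0.13 as each sample was left out in turn, and it was −0.19 without control 2. Only Acat2, the cytosolic thiolase that opens the pathway, passed the threshold, and by edgeR or DESeq2 none of the 25 did. Acat2 had 1048 and 942 normalized counts in control cells and 800 and 697 in DENR KO cells (log2 fold change −0.41 ± 0.09, adjusted p = 0.017). The remaining genes fell short singly, and 12 of the 25 had an unadjusted p under 0.05, all lower, beside 9.25% of all genes tested (3.74% lower).

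Fatty acid synthesis and desaturation showed a similar shift, with 16 of 21 genes below 0 and a median of −0.13 (−0.07 without control 2). The 2 genes that fell were the stearoyl-CoA desaturases, which place the double bond in newly made fatty acids. Scd2 went from 26519 and 27890 normalized counts to 20698 and 22671 (log2 fold change −0.33 ± 0.06, adjusted p = 0.0021). Scd1 went from 4969 and 5067 to 3985 and 4075 (log2 fold change −0.32 ± 0.06, adjusted p = 0.0054). Both paralogs fell by similar amounts and passed by edgeR and DESeq2 as well. Abca1, the exporter of cellular cholesterol, had 260 and 254 in control cells and 164 and 145 in DENR KO cells (log2 fold change −0.73 ± 0.14, adjusted p = 0.0079). Gpat4, an acyltransferase of glycerolipid synthesis that was on neither list and was picked after its values were seen, rose by 0.32 ± 0.06 (adjusted p = 0.012).

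The remaining genes that fell had varied roles. Plk4, the kinase that starts centriole duplication, had 225 and 189 normalized counts in control cells and 72 and 78 in DENR KO cells. Its log2 fold change of −1.46 ± 0.18 was the widest fall among genes with a symbol (adjusted p = 1.6e-05). Prl2c2, a placental prolactin family member (proliferin), fell from 1164 and 1249 to 786 and 643 (log2 fold change −0.76 ± 0.09, adjusted p = 3.4e-05). Its paralog Prl2c3 had 259 and 231 against 142 and 134 (log2 fold change −0.82 ± 0.15, adjusted p = 0.0034). The prolactin genes of this family are nearly identical in sequence, so the split of reads between them is uncertain, but the values of both were lower.

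Il1rl1, which encodes the receptor for interleukin-33, fell from 6100 and 6267 to 4755 and 4650 (log2 fold change −0.39 ± 0.06, adjusted p = 2.7e-04). Ifitm1, an interferon-inducible membrane protein, fell from 1826 and 1852 to 1348 and 1191 (log2 fold change −0.54 ± 0.07, adjusted p = 9.0e-05). Aldh1l2, the mitochondrial enzyme that oxidises 10-formyltetrahydrofolate, fell from 1257 and 1404 to 932 and 994 (log2 fold change −0.46 ± 0.08, adjusted p = 0.0021). These 3 genes had levels well above the filter and control values that lay apart from those of DENR KO cells. Socs2, a feedback inhibitor of cytokine receptors, had 125 and 153 in control cells and 64 and 79 in DENR KO cells (log2 fold change −0.95 ± 0.20, adjusted p = 0.013).

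Histone transcripts showed the furthest median shift of the lists with 10 or more genes tested, and no single gene passed by limma, edgeR or DESeq2. Replication-dependent histone mRNAs end in a stem loop in place of a poly(A) tail, and the libraries were selected on poly(A). Of 57 such genes in the table, 23 passed the filter, 21 of these lay above 0 and the median log2 fold change was 0.33. Summed over all 57 genes, the samples held 2491 and 2570 normalized counts in control cells and 3122 and 3107 in DENR KO cells. Neither DENR KO sum overlapped the controls. The 2 members with the highest level were Hist1h1c, with 862 and 845 against 1066 and 1055 (log2 fold change 0.31 ± 0.08, adjusted p = 0.064), and Hist2h2be, with 406 and 458 against 475 and 470 (log2 fold change 0.13 ± 0.10, adjusted p = 0.74). An unadjusted p under 0.05 was reached by 9 of the 23, all higher, beside 9.25% of all genes tested (5.51% higher). The list's median gene length was 727 bases, in the class under 1 kb whose median over all genes was 0.04, and without control 2 the list's median was 0.40. Histone genes share near-identical sequence, so reads may be split between them. H2afx, which encodes the histone variant that marks DNA breaks and was picked after its values were seen, rose from 1360 and 1451 to 1710 and 1779 (log2 fold change 0.31 ± 0.07, adjusted p = 0.028). The 48 genes of DNA replication and S phase had no call, with 39 below 0 and a median of −0.04.

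A few hypoxia, cytokine and immediate early genes rose as well. Of 22 hypoxia targets, 2 rose and none fell, beside 0.429% and 0.15% of all genes tested. Egln1, the oxygen-sensing prolyl hydroxylase of HIF, went from 4163 and 4146 normalized counts to 5033 and 5267 (log2 fold change 0.31 ± 0.06, adjusted p = 0.0073). Vegfa, the angiogenic growth factor, went from 4837 and 4617 to 5673 and 5721 (log2 fold change 0.27 ± 0.06, adjusted p = 0.021). Both HIF targets were modestly higher in both DENR KO samples, and the median of the list was 0.05. Among 28 chemokines and cytokines, Cx3cl1 (fractalkine, a membrane-tethered chemokine) and Tgfb1 rose. Cx3cl1 had 1244 and 1270 in control cells and 1618 and 1693 in DENR KO cells (log2 fold change 0.40 ± 0.07, adjusted p = 0.0033). Among 40 immediate early genes, Junb alone passed by limma, from 2610 and 2513 to 3128 and 3044 (log2 fold change 0.27 ± 0.06, adjusted p = 0.036). Junb did not pass by edgeR or DESeq2, and Vegfa passed by DESeq2 but not by edgeR. Egln1 and Cx3cl1 passed by both.

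Few genes of the IFNγ pathway passed the threshold without IFNγ. Ifitm1, which fell as described above (log2 fold change −0.54, adjusted p = 9.0e-05, limma), was not on the list of interferon-induced genes. Of 54 members of that list that were tested, 1 rose and none fell, beside 0.429% and 0.15% of all genes tested. Their median log2 fold change was −0.0057. The one that rose was Ifi204, a nucleic acid sensor family member, with 566 and 601 normalized counts in control cells and 777 and 797 in DENR KO cells (log2 fold change 0.43 ± 0.09, adjusted p = 0.012). Ifi204 passed by edgeR as well but not by DESeq2. Of 33 interferon receptors, JAKs, STATs and their regulators, only Socs2 fell, and by edgeR or DESeq2 none of the 33 passed. Jak2, the kinase paired with the IFNγ receptor, had 1060 and 1240 against 1093 and 1047 (log2 fold change −0.10 ± 0.08, adjusted p = 0.76). The Jak2 values of the 2 genotypes overlapped. Jak1 had 4888 and 4864 against 4594 and 4602 (log2 fold change −0.08 ± 0.06, adjusted p = 0.70).

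The receptor chains and transcription factors did not pass either. The log2 fold changes were −0.0052 ± 0.08 for Ifngr1, 0.10 ± 0.08 for Ifngr2, 0.06 ± 0.08 for Stat3 and 0.06 ± 0.07 for Irf1, with adjusted p from 0.73 to 0.99. Cd274, which encodes PD-L1, was low, with 51.3 and 41.8 normalized counts in control cells and 38.3 and 31.4 in DENR KO cells (log2 fold change −0.41 ± 0.29, adjusted p = 0.70). The KO values of Cd274 were below both controls, and the difference did not pass. Groups did not overlap for 39.9% of all genes tested. Cxcl1 (489 and 506 against 492 and 521) and Cxcl10 (223 and 220 against 237 and 197) had overlapping values in the 2 genotypes, and Cxcl9 reached at most 4.91 normalized counts and was not tested.

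Apart from Denr itself, lists tied to translation and stress held no call by limma in either direction. In all, 30 lists held none, and of their 944 genes 92 had an unadjusted p under 0.05, a share close to the 9.25% of all genes tested, 1 passed by edgeR and 0 by DESeq2. This covered 47 translation initiation factors, 84 cytosolic and 75 mitochondrial ribosomal proteins, 37 targets of ATF4 and the amino acid response, 25 endoplasmic reticulum chaperones, 28 p53 targets, 24 NRF2 targets, 20 factors and 24 known targets of nonsense-mediated decay and 51 mitosis genes. The lists do not hold every gene of a program: Sgo1, Plk4 and Aldh1l2, which passed as described above, were on none of the lists. The median log2 fold changes were −0.01 for initiation factors, 0.05 for both ribosomal lists and −0.06 for ATF4 targets. The medians of the cytosolic and mitochondrial ribosomal lists were −0.01 without control 2, so their direction rested on that library. Of 21 cytosolic tRNA synthetases 17 lay below 0, with a median of −0.06 that stayed between −0.10 and −0.04 as samples were left out, and again no call. Aars, the alanyl-tRNA synthetase, had 9721 and 9262 against 8795 and 8646 (log2 fold change −0.12 ± 0.06, adjusted p = 0.52). Slc38a2, an amino acid transporter induced by ATF4, had 9458 and 10181 against 9114 and 9006 (log2 fold change −0.12 ± 0.06, adjusted p = 0.55).

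Energy metabolism and growth pathways likewise held no call by limma. The lists were 24 genes of glycolysis, 78 nuclear and 12 mitochondrial genes of oxidative phosphorylation, 42 lysosome and autophagy genes, 25 targets of YAP and TEAD, 25 of the Wnt pathway, 18 of the Notch pathway, 24 receptor tyrosine kinases, 22 mesenchymal genes, 20 circadian clock genes and 38 splicing factors, with medians between −0.05 and 0.05. Leaving out control 1 or control 2 turned the direction for nuclear oxidative phosphorylation genes (0.14 and −0.04) and for mitochondrially encoded ones (−0.13 and 0.08). Eno1, a glycolytic enolase and the most abundant member of its list, had 74335 and 71665 normalized counts against 77895 and 78119 (log2 fold change 0.10 ± 0.05, adjusted p = 0.57). Psap, the precursor of the saposins of the lysosome, had 15227 and 15054 against 16785 and 16371 (log2 fold change 0.13 ± 0.05, adjusted p = 0.43). Both were slightly higher in each DENR KO sample without passing.

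Most genes that changed without IFNγ differed in the same direction in the separate IFNγ-treated samples. There, 565 of 13928 genes tested passed (4.06%). Of the 81 genes, 80 were tested, 72 (90.0%) had the same direction and 54 (67.5%) also passed, while 60.7% of all genes tested in both tables had the same direction. Pmepa1 was 0.68 ± 0.09 higher on the log2 scale with IFNγ (adjusted p = 2.3e-05). L1cam was 0.86 ± 0.11 higher (adjusted p = 8.5e-06). The TGF-β list again lay mostly above 0, with 29 of 39 genes and a median of 0.14. All 25 cholesterol synthesis genes were below 0 with IFNγ (median −0.13), and 17 of 21 histone genes above 0 (median 0.35), of which 3 rose. These lists therefore had medians of the same sign in both sets of samples.

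**Figure D4:**
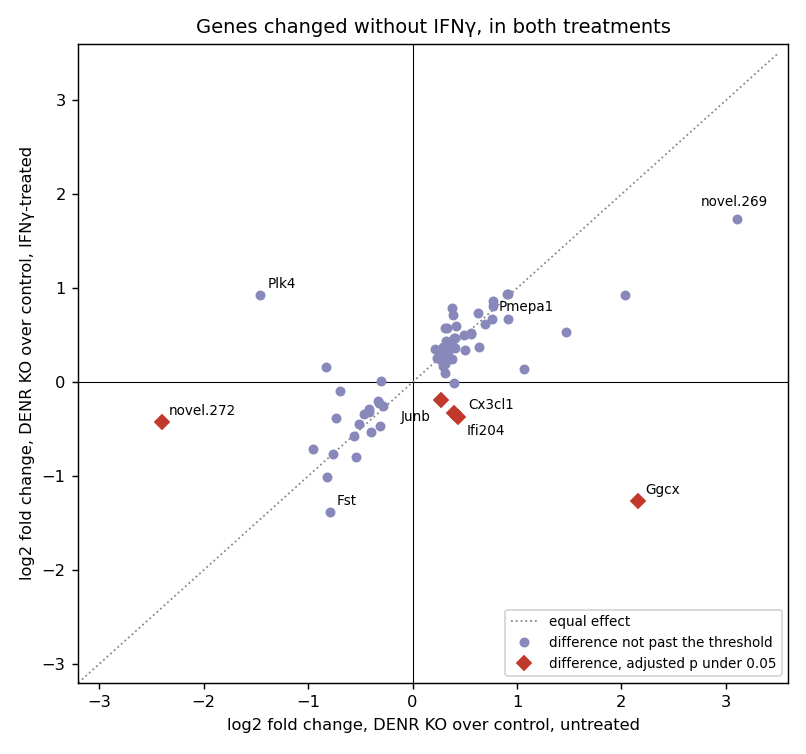
Log2 fold change (DENR KO over control) of the 80 genes changed without IFNγ and tested in both tables, untreated on the x axis and IFNγ-treated on the y axis; red diamonds mark the 5 genes whose difference between treatments passed. Of the 80 points, 72 have the same sign on both axes, and Cx3cl1, Ifi204, Junb and Ggcx lie above 0 untreated and below 0 with IFNγ.

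The effect of DENR loss itself was compared between treatments as an interaction over all 8 samples. In it 60 of 13998 genes passed (0.429%), and 57 of these had a higher log2 fold change without IFNγ than with it. A higher value can be a smaller effect: Cxcl10 had a log2 fold change of −0.04 without IFNγ and −1.22 with it. Of the 81 genes changed without IFNγ, 5 passed. Cx3cl1 was higher in DENR KO cells without IFNγ and lower with it, at 7499 and 7277 normalized counts in treated controls and 6124 and 5677 in treated DENR KO cells. Ifi204 turned in the same way, with 1870 and 2001 against 1431 and 1562. Of the 54 interferon-induced genes, 13 had an effect that differed, all with the higher log2 fold change without IFNγ. Few of this list passed without IFNγ, where 1 of 54 rose and 0 fell. With IFNγ 46 of 65 tested fell and 0 rose. Plk4 was not among the genes that passed: its treated values were 253 and 52.4 in control cells and 237 and 204 in DENR KO cells, a spread between the controls wider than the difference between genotypes.

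A further 35 changed genes with a symbol on a main chromosome lay outside the rule for naming, 32 higher and 3 lower, and 22 of them had a mean of at least 1000. Those that rose had a median log2 fold change of 0.33, with a range from 0.27 to 2.16. The genes named next were picked after their values were seen. Bok, a pro-apoptotic member of the BCL-2 family, had 2304 and 1993 normalized counts in control cells and 2883 and 2782 in DENR KO cells (log2 fold change 0.40 ± 0.07, adjusted p = 0.0027). Tnnt2, the troponin T of cardiac muscle, had 2250 and 2027 against 2802 and 2786 (log2 fold change 0.39 ± 0.07, adjusted p = 0.0021). In both genes the 2 controls stood further apart than the 2 DENR KO samples. Nmt2, which attaches myristate to proteins, fell from 3467 and 3530 to 2763 and 2896 (log2 fold change −0.31 ± 0.06, adjusted p = 0.012). The clone-named protein-coding gene 2810021J22Rik had 209 and 173 against 356 and 366 (log2 fold change 0.92 ± 0.13, adjusted p = 1.2e-04), a wider rise than that of Ngfr.

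Some calls were unnamed loci or lay near the filter. Of the 81 genes, 72 were protein coding and 5 were unnamed loci assembled by the submitters, of which 4 lay on alternate scaffolds. An unnamed locus on the plus strand of CHR_MG209_PATCH, between 47368839 and 47378699, had 233 and 203 normalized counts in control cells and 52.0 and 31.4 in DENR KO cells (log2 fold change −2.40 ± 0.22, adjusted p = 1.1e-06). An unnamed locus on the minus strand of CHR_MG191_PATCH, between 90894627 and 90904872, had 10.1 and 11.2 against 121 and 81.6 (log2 fold change 3.11 ± 0.32, adjusted p = 1.4e-06). These were the 2 smallest p values of the comparison, and reads there may also match the main chromosomes. With IFNγ the same loci had log2 fold changes of −0.43 ± 0.27 and 1.74 ± 0.80, neither of which passed (adjusted p = 0.56 and 0.58). Among genes of low level, picked after their values were seen, Ggcx, the vitamin K-dependent carboxylase, had 12.1 and 10.2 against 59.8 and 47.2, and Tnfrsf11b, which encodes osteoprotegerin, 10.1 and 7.14 against 36.3 and 39.3. Both rose (adjusted p = 0.0016 and 0.012), and neither got an adjusted p from DESeq2. Genes that changed lay on every autosome and on chromosome X.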

How the data were processed

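RNA-seq of MC38 cells was read from a table of 22288 genes with 4 untreated samples, and a separate table of 22142 genes held the 4 IFNγ-treated samples. The deposited values are a normalized count signal, made by the authors by dividing reads per gene by 1 size factor per sample. Their processing notes name HISAT2 2.0.5, StringTie 1.3.3b, featureCounts 1.5.0-p3, DESeq2 1.20.0 and mm9, whereas 95.4% of the gene IDs matched in GENCODE M21 had their GRCm38 coordinates. Libraries were poly(A)-selected, and whether they mark strand is not given in the sources used here. The authors' own fold changes and p-values were not used.

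Genes with a mean of at least 10 were tested on log2(value + 1) with limma 3.58.1 (R 4.3.3, trend and robust moderation, two-sided) and Benjamini-Hochberg adjustment over all tested genes. A gene changed, rose or fell at an adjusted p under 0.05. Fold changes on this scale understate those of low genes. Values were whole multiples of 1 read, and edgeR 4.0.16 and DESeq2 1.42.0 served as alternatives, using the reads recovered from these steps. In 2 samples (untreated control 1 and IFNγ-treated control 2) the value of 1 read lies so close to 1 that recovery could not be checked independently. The tables were normalized separately, and the comparison of effects between them was an interaction in limma over all 8 samples.

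Genes in the text are Denr and its partners, the main IFNγ pathway genes, the 12 highest and 12 lowest changed protein-coding genes on main chromosomes whose mean reached 100, whose groups did not overlap and whose symbol is no clone name (Gm, Rik, AC, AL), the 5 smallest p, and changed or most abundant members of each list. Exceptions are marked. Some genes that these rules name are not reported here. The members and lists were chosen with earlier results of these data known. The steps were tested on simulated data. Same-numbered untreated samples had a correlation of deviations of 0.0138, so numbers were not treated as pairs. Pairing was not checked in the IFNγ-treated samples.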

Additional observations from a re-analysis of the deposited data

Results flagged for a closer look

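The effect of DENR loss differed between untreated and IFNγ-treated cells, by the interaction test in limma over all 8 samples, for 9 of the genes and loci described above. The differences below are the log2 fold change without IFNγ minus that with IFNγ. They were 0.80 for Ifi204, 0.72 for Cx3cl1, 0.46 for Junb and 3.42 for Ggcx, each of which was higher in DENR KO cells without IFNγ and had a log2 fold change below 0 with it. The unnamed locus on CHR_MG209_PATCH had a difference of −1.97. Stat3 (0.60), Irf1 (0.58), Cxcl1 (0.81) and Cxcl10 (1.18) did not pass without IFNγ and were lower in DENR KO cells with it. Groups of 2 samples are too small to test for a sample that lies apart from the others.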

How the results depend on the processing

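Of the genes changed without IFNγ, 81 of 81 kept their direction in every alternative. Their number was 45 without robust moderation, 41 by edgeR and 52 by DESeq2, and 30 and 8 lay beyond 0.5 and 1 on the log2 scale. It ranged from 32 to 91 as each sample was left out, with 32 without control 2, and the cause was not tested. Filters, pseudocounts, centring and a variance shared with the treated samples gave 67 to 114. With the replicate number as a block, 257 genes passed without IFNγ and 1455 with IFNγ (565 without the block). In the difference between treatments 146 passed (60 without the block). Whether the numbers pair the samples was checked in the untreated samples only, where the correlation of deviations was 0.0138. The difference count ranged from 33 to 88 as samples were left out, falling to 37 without untreated DENR KO 1, 35 without treated control 2 and 33 without treated DENR KO 2. Among genes that did not pass, log2 fold changes changed sign as samples were left out: Mcts2 from −0.20 to 0.26, Eif2d from −0.021 to 0.075, Jak2 from −0.21 to 0.013, Stat3 from −0.041 to 0.16, Ifngr1 from −0.11 to 0.10, Cxcl1 from −0.015 to 0.066 and Cxcl10 from −0.17 to 0.10. With each sample centred on its median, the log2 fold change of Eif2d was -2.16e-05 and the log2 fold change of Cxcl1 was −0.0015.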
